A study of Mus musculus with 11 samples.

Results

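The contractile genes of myoepithelial cells were followed through 11 RNA-seq libraries of mouse mammary epithelium. The set comprised 10 genes chosen by name, *Acta2*, *Actg2*, *Myh11*, *Myl9*, *Mylk*, *Cnn1*, *Tagln*, *Lmod1*, *Oxtr* and *Myocd*, out of 27179 genes in the count tables. Earlier results of these data were known when they were chosen. All 10 were among the 15422 genes that passed the filter on low counts (over 0.5 CPM in at least 3 libraries). CPM are read counts relative to library size after TMM scaling. MaSC/basal (CD24+CD29hi), LP (CD24+CD29loCD61+) and ML (CD24+CD29loCD61-) cells were sorted from the mammary glands of wild type virgin FVB/N females, 8 weeks old by the labels, with 3 libraries each. The Mammosphere library was made from cells grown out of sorted MaSC/basal cells for 1 week without attachment. The Comma Dβ library was made from an established Balb/c line derived from mammary glands in mid-pregnancy, which carries a β-Geo transgene. These cultures were represented by 1 library each, and their values have no replicate check.

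Between 19958838 and 75795034 reads were counted per library, so that 1 read corresponded to 0.0133 to 0.0534 CPM. Batch 1 held replicate 1 of each sorted population and the Mammosphere library, batch 2 held MaSC/basal replicates 2 and 3 with LP and ML replicate 2, and batch 3 held LP and ML replicate 3 with the Comma Dβ library. No MaSC/basal library was in batch 3. Batch, mouse strain and cell line cannot be told apart for Comma Dβ. MaSC/basal replicate 1 is labelled wild type but was submitted under a name with p53 in it, and Mammosphere under a name that may stand for more than 1 culture. The basal markers *Krt5*, *Krt14*, *Krt17* and *Trp63* summed to 9864 to 11710 CPM in MaSC/basal libraries and to 43.6 to 75.4 CPM in 5 of the 6 luminal (LP and ML) libraries, with 324 CPM in ML replicate 3. The 8 luminal markers, led by keratin genes, were lower in every MaSC/basal library than in every luminal library, and summed to 1442 to 1729 CPM against 13710 to 20920 CPM. The basal and luminal sums were 5055 and 3409 CPM in Mammosphere, and 1081 and 235 CPM in Comma Dβ. The sorted libraries thus matched their labels, apart from the basal signal in ML replicate 3.

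Myoepithelial cells form the outer, contractile layer of mammary ducts and alveoli, and their contraction in response to oxytocin ejects milk. Their filaments are built from the smooth muscle forms of actin and myosin, and contraction starts when calcium and calmodulin activate myosin light chain kinase, which phosphorylates the regulatory light chain. The genes of this apparatus are targets of serum response factor (SRF), which binds a DNA element called the CArG box and is strongly activated on smooth muscle genes by its cofactor myocardin. The same genes are expressed by vascular smooth muscle cells and pericytes.

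Sequences around CArG boxes are shown for *Acta2* and *Myl9*, since this element is the known binding site of SRF and all 10 contractile genes were higher in MaSC/basal than in luminal libraries. Whether SRF had a part in the levels was not tested. RefSeq promoter windows on GRCm38.p6, 250 bases before to 50 bases after a start site, were used for 6 of the 10 genes (*Acta2*, *Cnn1*, *Mylk*, *Myl9*, *Lmod1* and *Oxtr*). The strict CArG box was found in 1 of them, *Myl9*. A CArG-like box, in which 1 inner base may be C or G, was found in 2 of them, *Acta2* and *Myl9*, each with 2 boxes. Over 27025 genes with a window, 1.62% held a strict box, 9.78% a CArG-like box and 0.759% at least 2 CArG-like boxes. The CArG-like form was chosen after these sequences were seen, so its shares are no test of the matches. The boxes, read on the strand of the gene with the box in capitals, were as follows.
Acta2, box at bases -84 to -75 from the start, minus strand, chr19:34255438-34255467: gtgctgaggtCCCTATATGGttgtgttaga
Acta2, box at bases -34 to -25, minus strand, chr19:34255388-34255417: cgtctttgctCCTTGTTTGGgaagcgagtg
Myl9, strict box at bases -161 to -152, plus strand, chr2:156775293-156775322: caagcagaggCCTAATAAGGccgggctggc
Myl9, box at bases -99 to -90, plus strand, chr2:156775355-156775384: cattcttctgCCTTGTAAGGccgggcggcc
Both *Acta2* boxes lie inside the annotated extent of the gene (chromosome 19, 34240336 to 34255585), which reaches upstream of the start site of the window. These matches describe letters in the windows, and binding was not measured.

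All 10 genes were higher in MaSC/basal cells than in luminal cells. In the quasi-likelihood test of edgeR, 10 of 10 were called against LP (29.4% of all genes tested were called higher in MaSC/basal cells), 10 of 10 against ML (28.9% of all genes) and 10 of 10 against the mean of LP and ML (31.2% of all genes), at FDR under 0.05. The median log2 fold change over the 10 genes was 6.74 against LP, 7.11 against ML and 6.96 against both, where the median of all genes was -0.01. The lowest MaSC/basal library was above the highest luminal library for each of the 10 genes, by 1.92-fold for *Myocd* and by 5.07-fold (*Lmod1*) to 112-fold (*Actg2*) for the others. Of all genes, 25.4% were without overlap in this direction. *Myocd* entered these counts through a filter that it passed mainly in the MaSC/basal libraries. In the exact permutation test of each gene, two-sided, the observed split of 3 against 6 libraries gave p = 0.0119, the smallest that 84 splits allow. Together the 10 genes took 1.32%, 2.00% and 1.52% of all counted reads in MaSC/basal replicates 1, 2 and 3, and 0.00578% to 0.0216% in the luminal libraries. Because whole populations were measured, fewer contractile cells and less RNA per cell cannot be told apart.

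**Figure D1:**
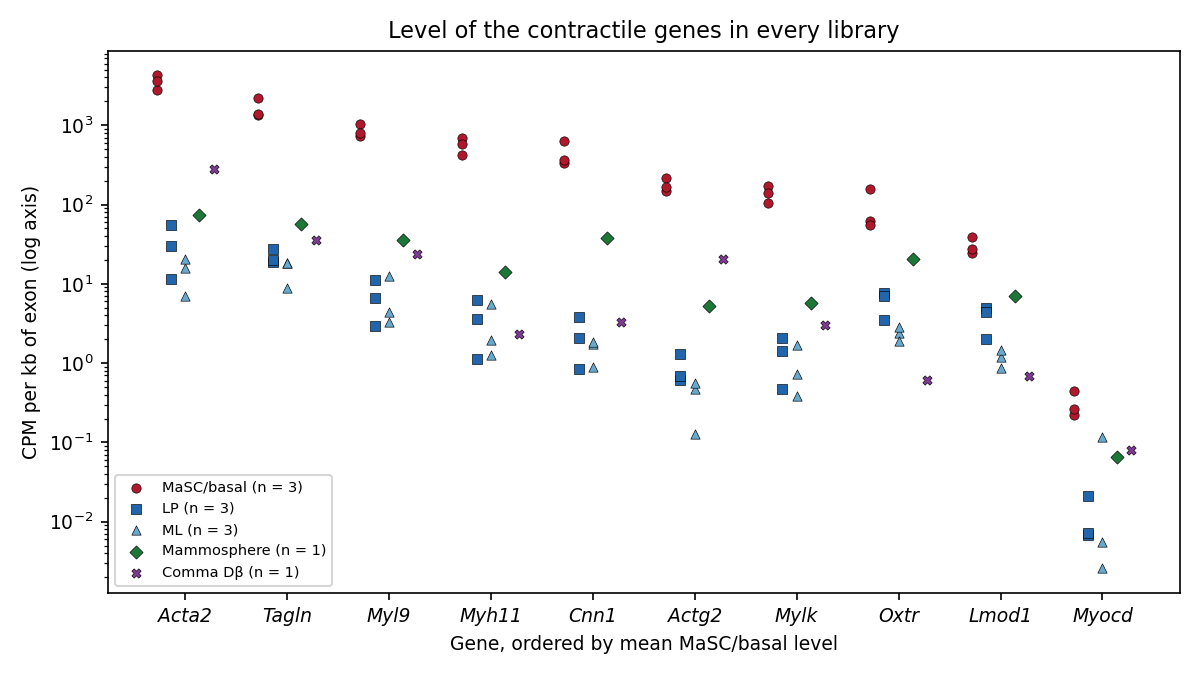
CPM per kb of exon (log axis) of each contractile gene in the 11 libraries, with genes ordered by their mean MaSC/basal level. Points are single libraries, coloured by sample type. *Acta2* had the highest MaSC/basal level (3560 CPM per kb) and *Myocd* the lowest (0.310 CPM per kb), and every MaSC/basal point lies above every luminal point of the same gene.

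Of the smooth muscle actins, *Acta2* had the highest MaSC/basal level of the 10 genes and *Actg2* the largest fold change. *Acta2*, which encodes smooth muscle α-actin (Entrez 11475), was at 5018, 7567 and 6427 CPM in MaSC/basal replicates 1 to 3. In LP replicates 1 to 3 it was at 20.6, 98.7 and 53.6 CPM, and in ML replicates 1 to 3 at 12.4, 27.8 and 36.2 CPM. No luminal library came near a MaSC/basal library, and the log2 fold change against luminal cells was 7.37 (SE 0.50, adjusted p = 8.22e-07, edgeR). *Actg2* encodes smooth muscle γ-actin (Entrez 11468, chromosome 6, 83512909 to 83536251). Its level was 192, 286 and 220 CPM in MaSC/basal cells, 0.811, 1.72 and 0.908 CPM in LP cells and 0.170, 0.625 and 0.729 CPM in ML cells. Its log2 fold change of 8.21 (SE 0.32, adjusted p = 4.67e-08, edgeR) was the largest of the 10 genes. Per kb of exon, *Acta2* was 20.1-fold higher than *Actg2* in MaSC/basal cells.

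The myosin subunits and their kinase followed the actins. *Myh11*, the smooth muscle myosin heavy chain (Entrez 17880, chromosome 16, 14194527 to 14292188), was at 2803, 4607 and 3853 CPM in MaSC/basal cells, 7.55, 40.9 and 23.6 CPM in LP cells and 8.43, 13.1 and 37.3 CPM in ML cells. *Myl9* (Entrez 98932, chromosome 2, 156775408 to 156781657), the regulatory light chain paired with it in smooth muscle, was at 793, 1117 and 866 CPM, against 3.17, 12.1 and 7.26 CPM in LP cells and 3.62, 4.73 and 13.5 CPM in ML cells. *Mylk* (Entrez 107589, chromosome 16, 34745199 to 35002436) encodes the kinase of that light chain. It was at 810, 1322 and 1090 CPM, against 3.63, 16.2 and 10.95 CPM in LP cells and 2.97, 5.77 and 13.4 CPM in ML cells. Among luminal libraries, LP replicate 2 and ML replicate 3 were highest for all 3 of these genes. The log2 fold changes against luminal cells were 7.44 (SE 0.59, adjusted p = 2.47e-06, edgeR) for *Myh11*, 6.97 (SE 0.48, adjusted p = 9.64e-07) for *Myl9* and 6.96 (SE 0.53, adjusted p = 1.71e-06) for *Mylk*.

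Of the thin filament genes, *Cnn1* and *Tagln* had a low luminal level and *Lmod1* a higher one relative to MaSC/basal cells. *Cnn1* (calponin 1, Entrez 12797, chromosome 9, 22099221 to 22109221), which inhibits the myosin ATPase on actin, was at 655, 1250 and 732 CPM in MaSC/basal cells. It was at 1.66, 7.62 and 4.11 CPM in LP cells and 1.78, 3.43 and 3.65 CPM in ML cells. Its difference from luminal cells was 7.91 on the log2 scale (SE 0.45, adjusted p = 2.63e-07, edgeR). *Tagln* (transgelin or SM22, Entrez 21345, chromosome 9, 45929628 to 45936058) is an actin-binding protein of smooth muscle. It was at 2158, 3487 and 2214 CPM in MaSC/basal cells, 29.5, 43.3 and 31.5 CPM in LP cells and 13.9, 29.1 and 29.0 CPM in ML cells, and its difference was 6.50 on the log2 scale (SE 0.29, adjusted p = 7.14e-08). Of the 100-base stretches of *Tagln* transcripts, 48.3% also occur in transcripts of *Pcsk7* or *Gm48529*, which overlap it, and counting by strand was not stated. *Pcsk7* itself was at 43.1 to 44.6 CPM in MaSC/basal cells and 47.3 to 85.9 CPM in luminal cells. *Lmod1* (leiomodin 1, Entrez 93689, chromosome 1, 135324813 to 135368065), which nucleates actin filaments, was at 97.6, 155 and 109 CPM in MaSC/basal cells, but at 19.3, 8.01 and 17.4 CPM in LP cells and 3.42, 4.71 and 5.74 CPM in ML cells. Its log2 fold change of 3.87 (SE 0.27, adjusted p = 9.96e-07) was the smallest of the 10 genes.

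The receptor and the cofactor also had smaller differences. *Oxtr*, the oxytocin receptor (Entrez 18430, chromosome 6, 112473683 to 112491035), was at 286, 726 and 249 CPM in MaSC/basal cells, 35.1, 16.1 and 32.1 CPM in LP cells and 10.97, 12.9 and 8.66 CPM in ML cells, with a difference of 4.60 on the log2 scale (SE 0.36, adjusted p = 2.13e-06, edgeR). *Myocd*, the gene of myocardin (Entrez 214384, chromosome 11, 65173608 to 65269989), had the lowest level of the 10 genes per kb of exon, at a mean of 0.310 CPM per kb in MaSC/basal cells. It had 67, 114 and 72 reads in MaSC/basal replicates 1 to 3 (1.14, 2.27 and 1.36 CPM). LP replicates 1 to 3 had 1, 2 and 2 reads, and ML replicates 1 to 3 had 1, 1 and 13 reads. *Myocd* was over 0.5 CPM only in the MaSC/basal libraries and ML replicate 3. It thus passed the filter on low counts mainly through the group where it was high, which favours its call. Its log2 fold change was 4.12 (SE 0.78, adjusted p = 0.00107, edgeR), and the ratio of pooled CPM was 18.2 (exact 95% interval 11.5 to 30.3, counting error only). Of the ML reads, 13 of 15 came from replicate 3, the library with the basal signal, and the log2 fold change of *Myocd* against ML was 3.37, rising to 6.23 without that library.

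Markers of pericytes and vascular smooth muscle, which use the same contractile genes, moved in part with them. Of the 10 genes of this list, 5 (*Rgs5*, *Pdgfrb*, *Cspg4*, *Mcam* and *Higd1b*) were higher in every MaSC/basal library than in every luminal library, and *Notch3* was lower. Of all genes that passed the filter on low counts, 25.4% were higher in this way. *Higd1b* did not pass that filter, and its separation lies near the floor, with at most 0.137 CPM in luminal libraries. *Mcam* was at 108 to 168 CPM in MaSC/basal and 19.0 to 43.8 CPM in luminal libraries. *Pdgfrb* was at 16.1 to 27.5 and 1.76 to 7.90 CPM, and *Cspg4* at 10.2 to 15.1 and 0.247 to 2.92 CPM. *Rgs5*, a defining pericyte marker, was lower, at 2.47 to 6.16 CPM in MaSC/basal cells, with *Kcnj8* at 0.558 to 0.980 CPM and *Higd1b* at 0.151 to 0.204 CPM. The list summed to 162 to 243 CPM in MaSC/basal libraries and 261 to 363 CPM in luminal libraries, where *Notch3* made up most of the sum. In MaSC/basal replicate 2, which had the highest level of all 10 contractile genes, *Pdgfrb*, *Cspg4*, *Notch3*, *Mcam* and *Cox4i2* were also highest and *Rgs5* and *Kcnj8* lowest of the 3 libraries. Endothelial markers were higher in every MaSC/basal than in every luminal library for 6 of 6 genes, with sums of 45.8 to 97.9 and 5.74 to 39.0 CPM, and none was highest in replicate 2. Fibroblast markers were higher without overlap for 2 of 8 genes (sums of 811 to 1016 and 261 to 1187 CPM). Leukocyte markers were so for 1 of 6 genes (17.3 to 27.5 and 2.35 to 14.1 CPM). Neither count is set apart from the 25.4% of all genes. The part of such cells in the result was not tested.

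The higher level in MaSC/basal cells was present in each batch that held both. In batch 1 (1 against 2 libraries) the differences on the scale of log2(CPM + 0.5) ran from 1.62 to 8.37 with a median of 7.68, and in batch 2 (2 against 2 libraries) from 2.11 to 7.47 with a median of 6.90. All 10 genes were higher in the MaSC/basal libraries of both batches without overlap, as were 39.5% of all genes in batch 1 and 33.2% in batch 2. Batch 3 held luminal libraries only.

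Between the luminal populations, *Lmod1* and *Oxtr* were called higher in LP cells than in ML cells in the main fit, which did not include batch. These were 2 of the 10 genes called in this comparison (14.3% of all genes were called higher in LP cells). The log2 fold change was 1.69 for *Lmod1* (SE 0.34, adjusted p = 0.00521, edgeR) and 1.34 for *Oxtr* (SE 0.42, adjusted p = 0.0363, edgeR), and the 3 LP values lay above the 3 ML values for both. The call of *Oxtr* was not stable. In edgeR its adjusted p was 0.0578 with library batch as a replicate block and 0.05005 without scaling, and with limma voom it was 0.084. Without LP replicate 1, LP replicate 3, ML replicate 1 and ML replicate 3 it was 0.104, 0.0845, 0.0897 and 0.102 (edgeR). The actins were not called, with log2 fold changes of 1.26 for *Actg2* (adjusted p = 0.0528) and 1.18 for *Acta2* (adjusted p = 0.113), but both passed with batch as a block (adjusted p = 0.0256 and 0.0396). *Myh11* (0.31), *Myl9* (0.08), *Mylk* (0.51), *Cnn1* (0.63) and *Tagln* (0.54) had smaller differences that did not pass. *Myocd* alone went the other way, with a log2 fold change of -1.50 that did not pass. Of its 15 ML reads, 13 came from replicate 3. LP and ML values overlapped for 6 of the 10 genes (52.1% of all genes).

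Luminal libraries were not ranked alike by all genes. LP replicate 2 was the highest luminal library for 6 genes (*Acta2*, *Actg2*, *Myh11*, *Cnn1*, *Tagln* and *Mylk*), ML replicate 3 for *Myl9* and *Myocd*, and LP replicate 1 for *Lmod1* and *Oxtr*. As a percentage of the MaSC/basal mean, LP replicate 1 retained 16.0% of *Lmod1* and 8.36% of *Oxtr*, but 0.324% of *Acta2* and 0.207% of *Krt5*. In ML replicate 3, 4.58% of *Krt5* and 7.38% of *Trp63* was present beside 0.572% of *Acta2*. The order of the luminal libraries thus differed between *Lmod1* or *Oxtr* and the actins or *Krt5*. LP replicate 2 also had the highest sum of fibroblast markers of the luminal libraries (1187 CPM), and the part of this in its values was not tested.

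Where a contractile gene has paralogs that all cells use, the shift in its family was measured as a share of length-scaled reads. Smooth muscle actins (*Acta2* and *Actg2*) made up 71.1%, 78.3% and 76.3% of the reads of 6 actin genes in MaSC/basal replicates 1 to 3, and 0.321% to 3.57% in luminal libraries. The rest was cytoplasmic actin in both. *Actb* accounted for 23.0% ± 3.26 of actin reads in MaSC/basal cells (SD, n = 3) and 93.0% ± 1.51 in luminal cells (SD, n = 6). The summed level of the 6 actin genes was 4943 ± 767 CPM per kb in MaSC/basal cells and 2239 ± 601 CPM per kb in luminal cells (exact permutation p = 0.0119), while *Actb* alone was at 1119 ± 29.1 and 2087 ± 577 CPM per kb. As counted, the actin pool of MaSC/basal cells was thus larger and of a different composition. Of the 100-base stretches of *Actg1* transcripts, 29.9% also occur in transcripts of other genes, as do 0.644% of those of *Actb*. For *Acta2* and *Actg2* the share was 0%. The effect of such stretches on the counts was not tested.

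**Figure D2:**
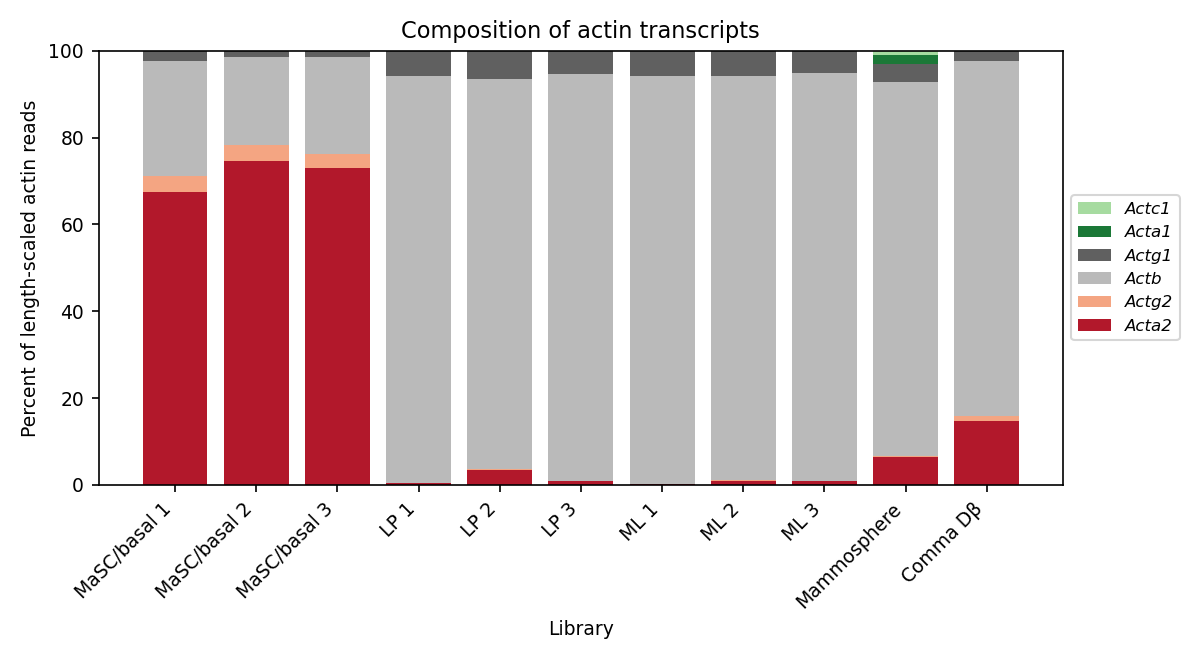
Share of each actin gene in the length-scaled reads of 6 actin genes (percent), for each library, with smooth muscle actins in red tones, cytoplasmic actins in grey and striated muscle actins in green. *Acta2* filled 67.6% to 74.5% of the bars of MaSC/basal libraries, 6.32% in Mammosphere and 14.8% in Comma Dβ, and *Actb* was the main gene in all other libraries.

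The same comparison was made for 8 further families. *Myl9* took 80.7% ± 2.52 of the regulatory light chains in MaSC/basal cells and 1.12% to 5.91% in luminal libraries, where *Myl12a* and *Myl12b* made up the rest. Of their 100-base stretches, 16.3% for *Myl12a* and 14% for *Myl12b* also occur in transcripts of other genes, against 0% for *Myl9*. *Myh11* took 60.6% ± 6.33 of the heavy chains, with *Myh9*, *Myh10* and *Myh14* as the others, and 0.376% to 2.62% in luminal libraries. The heavy chain *Myh14* went the other way, at 8.13 ± 0.589 CPM per kb in MaSC/basal cells and 65.2 ± 25.3 CPM per kb in luminal cells. *Cnn1* took 51.9% ± 7.47 of the calponins against 0.325% to 4.10%, *Lmod1* 56.1% ± 7.20 of the leiomodins and tropomodulins against 1.70% to 7.58%, and *Tagln* 87.6% ± 2.34 of the transgelins. For transgelins the luminal populations stood apart, with a *Tagln* share of 15.4% to 24.5% in LP cells and 2.21% to 5.94% in ML cells, with *Tagln2* at 401 to 537 CPM in ML cells and 116 to 151 CPM in LP cells. For these 6 families and for myocardin the share differed between MaSC/basal and luminal libraries. The exact permutation p was 0.0119 for each (two-sided, adjusted p = 0.0153 over 9 families). The contractile genes in these shares were themselves without overlap between the same libraries, so these p-values largely restate that result. The summed family level was not set apart for leiomodins and tropomodulins (exact permutation p = 0.179) or myocardin (p = 0.226).

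In the remaining families the contractile gene was not displaced by a paralog to the same degree. *Mylk* was 99.9% of myosin light chain kinase reads in MaSC/basal cells and 22.4% to 91.0% in luminal libraries (exact permutation p = 0.0357, adjusted p = 0.0402), where *Mylk2* supplied most of the rest. This result did not hold on reads not divided by length (p = 0.0595, exact permutation) and rests on a luminal family total of 2.04 CPM per kb against 138 in MaSC/basal cells. *Oxtr* was the main gene of the oxytocin and vasopressin receptors in all 11 libraries, from 56.8% in ML replicate 3 to 99.2% (exact permutation p = 0.31), with *Avpr1a* as the next gene. *Myocd* was 1.33% ± 0.377 of the myocardin family in MaSC/basal cells and 0.0134% to 0.630% in luminal libraries. Its relatives *Mrtfa* and *Mrtfb*, cofactors of SRF that respond to the state of actin, were at 17.3 ± 1.07 and 5.41 ± 1.04 CPM per kb in MaSC/basal cells and 8.12 ± 1.38 and 12.4 ± 3.88 CPM per kb in luminal cells.

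**Figure D3:**
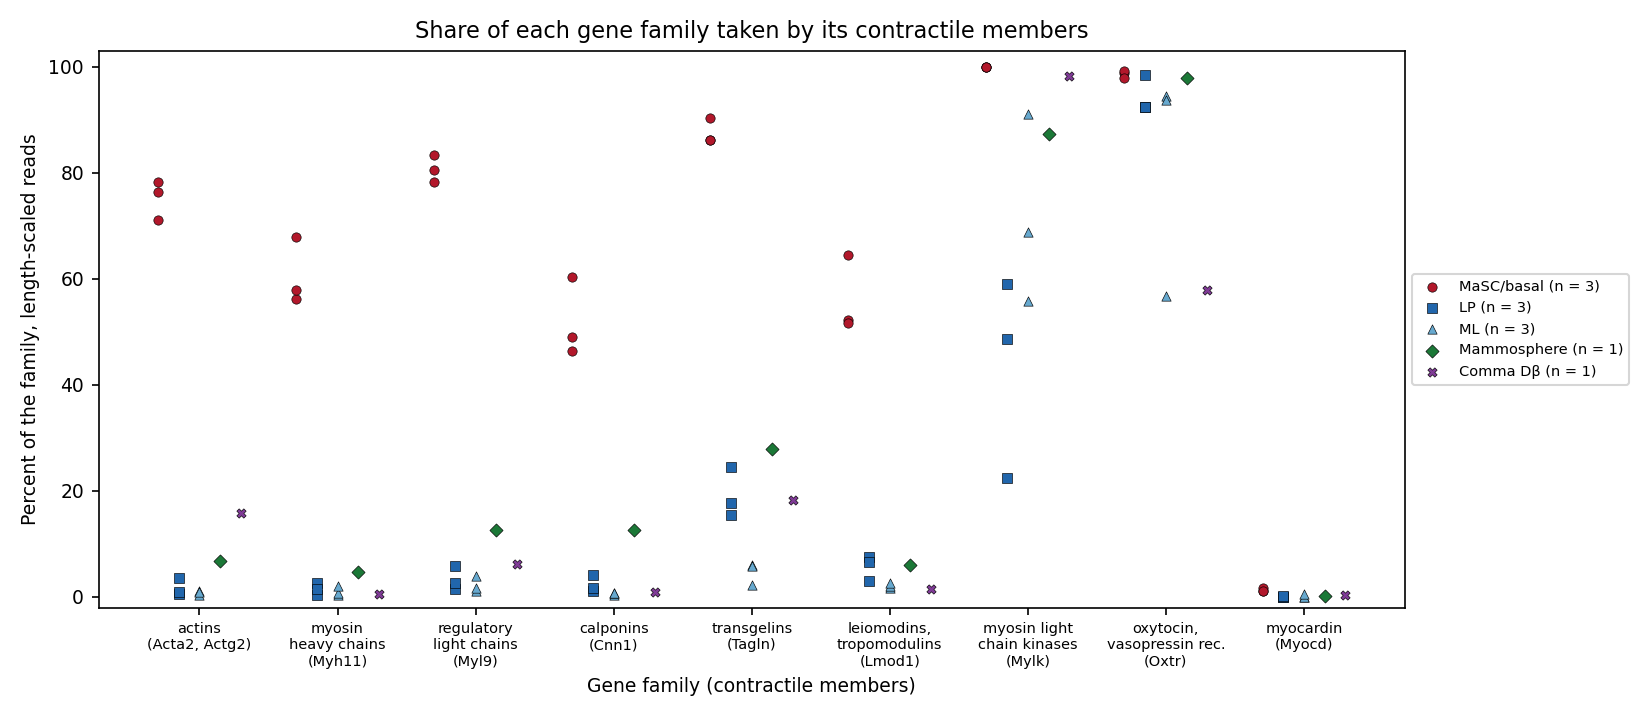
Share of the length-scaled reads of each gene family (percent) taken by its contractile members, with 1 point per library. In the families from actins to leiomodins the MaSC/basal points lie between 46.3% and 90.3% and all luminal points at or below 24.5%. For the kinases and the receptors the contractile gene also had a large share in luminal libraries.

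In culture the contractile genes were lower than in freshly sorted MaSC/basal cells, in both cultures. In the Mammosphere library 10 of 10 genes were over 2-fold lower than the MaSC/basal mean and below all 3 MaSC/basal libraries, which 20% of all genes also were. In 9 of 10 the difference was over 4-fold (8.35% of all genes). In the Comma Dβ library 10 of 10 genes were over 2-fold lower (24.8% of all genes) and 9 of 10 over 4-fold lower (14.6% of all genes). The median difference from MaSC/basal cells on the log2 scale (prior count 2) was -4.55 in Mammosphere, with a range of -5.58 to -1.99, and -5.46 in Comma Dβ, with a range of -7.90 to -1.78. The median of all genes was -0.01 and 0.02. The 10 genes took 0.0694% of counted reads in Mammosphere and 0.0793% in Comma Dβ. As 1 library stands for each culture, no test was made. The 2 comparisons share the MaSC/basal libraries, and their values are given side by side.

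The difference was uneven between genes and had a different order in each culture. *Acta2* was at 131 CPM in Mammosphere (2.07% of the MaSC/basal mean) and 494 CPM in Comma Dβ (7.80%). *Actg2* was at 6.83 CPM (2.94%) and 26.9 CPM (11.6%). The actins were thus 3.77-fold and 3.94-fold higher in Comma Dβ than in Mammosphere. *Myh11* was at 92.7 CPM in Mammosphere (2.47%) and 15.3 CPM in Comma Dβ (0.408%). *Cnn1* was at 75.0 CPM (8.53%) and 6.57 CPM (0.747%). For these 2 genes the order was reversed, with Mammosphere 6.05-fold and 11.4-fold higher.

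*Tagln* was at 89.9 CPM in Mammosphere (3.43% of the MaSC/basal mean) and 56.8 CPM in Comma Dβ (2.17%), and *Mylk* at 44.7 CPM (4.16%) and 23.4 CPM (2.18%). *Myl9* was at 39.2 CPM (4.23%) and 26.1 CPM (2.82%). The cultures differed by less than 2-fold in these 3 genes. *Lmod1* was at 27.5 CPM in Mammosphere (22.8%) and 2.69 CPM in Comma Dβ (2.23%). *Oxtr* was at 93.9 CPM (22.3%) and 2.79 CPM (0.664%), a 33.6-fold difference between the cultures and the largest of the 10 genes. *Oxtr* and *Lmod1*, the genes with the highest relative level in LP cells, were also among the 3 with the highest relative level in Mammosphere. *Myocd* had 15 reads in Mammosphere (0.338 CPM) and 12 in Comma Dβ (0.409 CPM). The ratio of MaSC/basal cells to each culture was 4.61 (exact 95% interval 2.74 to 8.36) and 3.82 (2.15 to 7.49) for *Myocd*, so the cultures could not be separated at this depth.

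Against luminal cells the cultures stood differently. In Mammosphere 9 of 10 genes were above every luminal library (31.9% of all genes were), and *Myocd* was within their range. In Comma Dβ 5 of 10 genes were above every luminal library (*Acta2*, *Actg2*, *Tagln*, *Mylk* and *Myl9*, against 35.6% of all genes). *Myh11*, *Cnn1* and *Myocd* were within the luminal range, and *Lmod1* and *Oxtr* were below every luminal library (36.5% of all genes were). For *Myocd* the place of both cultures in that range rests on ML replicate 3 (13 reads, 0.592 CPM), the library with the basal signal. Its other luminal values were 0.0133 to 0.107 CPM, below Mammosphere (0.338 CPM) and Comma Dβ (0.409 CPM). MaSC/basal was highest for all 10 genes, and the next sample type was Mammosphere for 7 genes and Comma Dβ for *Acta2*, *Actg2* and *Myocd*. Beyond the MaSC/basal level these orders rest on single culture libraries, and LP and ML ranges overlapped for 6 of the 10 genes.

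The basal keratins and p63 were retained at higher shares than most contractile genes. In Mammosphere *Krt5* was at 32.8%, *Krt14* at 44.4%, *Krt17* at 69.8% and *Trp63* at 30.7% of the MaSC/basal mean, all above the 2.07% to 22.8% of the contractile genes. In Comma Dβ *Krt5* was at 15.8%, *Krt14* at 10.1%, *Krt17* at 2.94% and *Trp63* at 15.6%, so that *Krt17* was lower than *Acta2* or *Actg2*. In Comma Dβ the shares of basal markers and contractile genes overlapped.

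**Figure D4:**
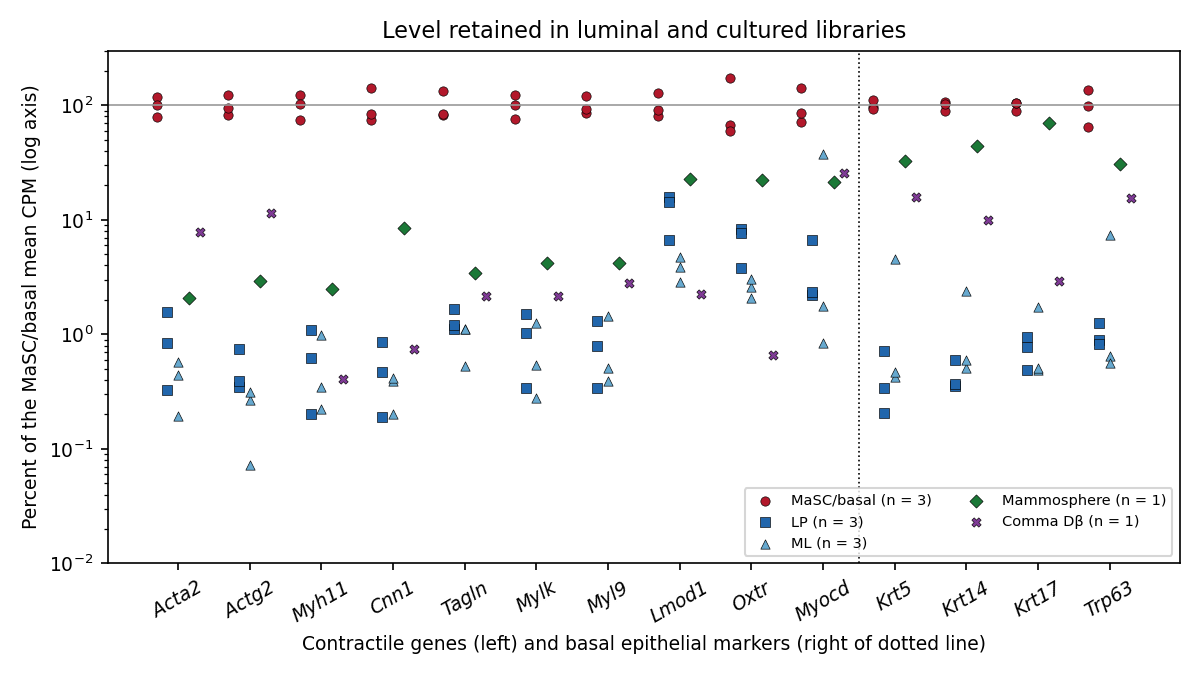
Level of each contractile gene and of 4 basal epithelial markers as a percent of the MaSC/basal mean CPM (log axis), with 1 point per library and the MaSC/basal mean as a grey line at 100%. Mammosphere points lie between 2.07% and 22.8% for contractile genes and between 30.7% and 69.8% for the basal markers, and Comma Dβ points spread from 0.408% (*Myh11*) to 25.7% (*Myocd*).

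The composition of the families in culture lay between the sorted populations or at the luminal end. Smooth muscle actins were 6.76% of actin reads in Mammosphere and 15.9% in Comma Dβ, and the summed actin level was 1165 and 1881 CPM per kb, below the MaSC/basal libraries. *Myl9* was 12.6% and 6.16% of regulatory light chains, *Cnn1* 12.6% and 0.841% of calponins and *Myh11* 4.64% and 0.639% of heavy chains. Mammosphere also held striated muscle actins, with *Acta1* at 34.7 CPM and *Actc1* at 17.3 CPM against at most 4.42 CPM in any sorted library. Skeletal muscle markers summed to 147 CPM in Mammosphere and to 2.09 to 3.37 CPM in MaSC/basal cells, and their part in the Mammosphere values was not tested.

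The other genes of the contractile pathway were described from 4 lists. Of 29 further filament genes, 26 were higher in MaSC/basal than in luminal cells at FDR under 0.05, 1 was lower and 2 were not called, beside 31.2% of all genes called higher and 30.5% called lower. *Tpm2*, the β-tropomyosin gene, had a log2 fold change of 7.06 (adjusted p = 1.75e-07, edgeR), near that of *Acta2* (7.37), followed by *Nexn* (5.95) and *Synpo2* (5.80), which encode actin-binding proteins. *Ldb3*, a Z-disc protein gene, was lower in MaSC/basal cells (-3.50). In Mammosphere 19 of the 29 genes were over 2-fold lower than in MaSC/basal cells (20% of all genes) and 2 over 2-fold higher (19.6% of all genes), beyond all 3 MaSC/basal libraries. In Comma Dβ 18 were lower (24.8% of all genes) and 4 higher (16.9% of all genes). *Tpm2* retained 23.9% of its MaSC/basal level in Mammosphere and 15.3% in Comma Dβ, more than *Acta2* in either.

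The genes that set light chain phosphorylation were less uniform, with 10 of 20 higher in MaSC/basal cells, 3 lower and 7 not called. Of all genes, 31.2% were called higher and 30.5% lower. *Mrvi1* (7.30), a substrate of the cGMP kinase that restrains calcium release, *Ppp1r14a* (4.31), an inhibitor of myosin phosphatase, and the cGMP kinase gene *Prkg1* (2.83) had the largest log2 fold changes. The 3 lower genes differed by little, with log2 fold changes of -0.48 for the phosphatase catalytic subunit *Ppp1cb*, -0.46 for *Pak1* and -0.27 for *Rhoa*. The calls of *Pak1* and *Rhoa* were not stable. That of *Pak1* was lost without scaling (adjusted p = 0.0509, edgeR) and without MaSC/basal replicate 1 or 2 or ML replicate 2 or 3 (adjusted p up to 0.133). That of *Rhoa* was lost without scaling (0.133), with other filters (0.0787 and 0.0505), with batch as a replicate block (0.0617) and without any sorted library other than MaSC/basal replicate 2 (adjusted p up to 0.156, edgeR). In culture 7 of the 20 genes were over 2-fold lower in each library, beside 20% of all genes in Mammosphere and 24.8% in Comma Dβ. None was over 2-fold higher in Mammosphere (19.6% of all genes) and 1 was in Comma Dβ (16.9% of all genes). The median log2 differences were -0.29 and -0.49. *Mrvi1* was at 2.90% of the MaSC/basal level in Mammosphere and 1.16% in Comma Dβ.

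Of 31 calcium and receptor genes, 27 were tested. In MaSC/basal cells 14 were higher (31.2% of all genes) and 8 lower (30.5% of all genes), and 5 were not called. The potassium channel subunits *Kcnmb1* (7.64) and *Kcnma1* (5.01) and the calcium channel *Cacna1c* (4.75) had the largest log2 fold changes. *Adra1a*, an adrenergic receptor (-4.69), the calcium entry channel *Orai1* (-1.64) and the chloride channel *Ano1* (-1.35) were lower. The 2 channel subunits parted in Comma Dβ, where *Kcnmb1* had 3 reads (0.102 CPM against 39.3 in MaSC/basal cells) and *Kcnma1* 69 reads (2.35 against 20.1 CPM). In each culture 13 of the 27 genes were over 2-fold lower (20% of all genes in Mammosphere and 24.8% in Comma Dβ). Over 2-fold higher were 5 in Mammosphere (19.6% of all genes) and 3 in Comma Dβ (16.9% of all genes).

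Of 24 regulators of SRF target genes, 23 were tested. In MaSC/basal cells 12 were higher (31.2% of all genes) and 7 lower (30.5% of all genes), and 4 were not called. *Trp63* (5.90) and *Mef2c* (4.55) had the largest log2 fold changes. The Notch pathway genes *Notch3* (-3.71), *Heyl* (-2.73) and *Hey2* (-2.54), of which *Notch3* is known for its role in vascular smooth muscle, were lower in MaSC/basal cells. In Mammosphere 8 of the 23 genes were over 2-fold lower (20% of all genes) and 4 over 2-fold higher (19.6% of all genes). In Comma Dβ 11 were lower (24.8% of all genes) and 3 higher (16.9% of all genes).

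**Figure D5:**
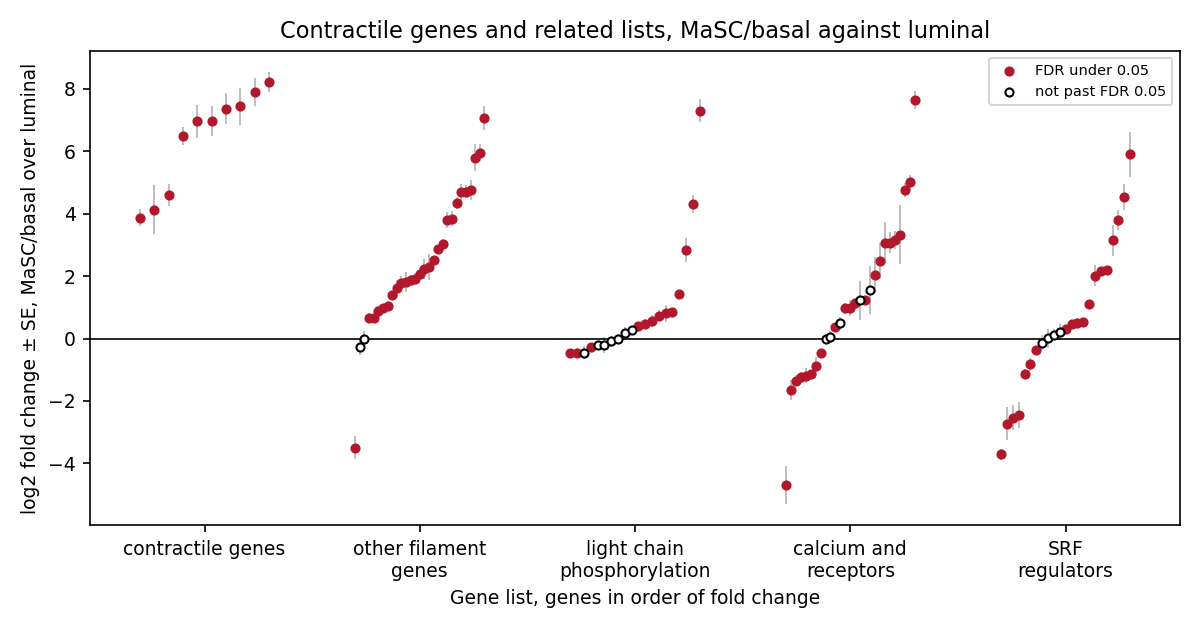
log2 fold change (MaSC/basal against the mean of LP and ML, edgeR) with its SE for the contractile genes and the genes of 4 related lists, ordered within each list. Filled points passed FDR 0.05. The 10 contractile genes lie between 3.87 and 8.21, whereas the lists for phosphorylation, calcium and SRF regulators reach from below 0 to over 5.

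Among MaSC/basal libraries, replicate 2 had the highest level of all 10 contractile genes, whereas 39.1% of all genes were highest there. The 4 basal markers and 4 of the 8 luminal markers (*Krt8*, *Krt18*, *Krt19* and *Elf5*) were also highest in this library. Its ratio to the mean of the others ran from 1.32 (*Acta2*) to 2.71 (*Oxtr*), with a median ratio over all genes of 1.03. The coefficient of variation over the 3 MaSC/basal libraries had a median of 24.6% for the contractile genes and 16.6% for all genes, and it was 63.0% for *Oxtr*. Replicates 2 and 3 were of the same batch, so that batch did not separate them. Without replicate 2 all 10 genes were still called in all 3 comparisons with luminal cells.

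The genes most like the contractile set were found by Pearson correlation of log2 CPM over the 11 libraries with the mean of the standardised members. They were *Gm11627* (r = 0.99), *Efcab1*, *Ackr4*, *Pltp*, *Hunk*, *Popdc2*, *Filip1*, *Mrvi1*, *Asb2* and *Moxd1* (r = 0.98). The 11 libraries are of 5 sample types, so these values mainly describe the contrast between MaSC/basal and other libraries. Within the set, *Mylk* (0.99) and *Tagln* (0.99) were closest to the mean, and *Oxtr* (0.87), *Myocd* (0.89) and *Lmod1* (0.90) were farthest from it.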

How the data were processed

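Single-end reads were aligned to mm10 by the authors (Rsubread) and summarised by Entrez gene (featureCounts), and the deposited files hold raw counts and exon lengths of 27179 genes for each of the 11 libraries. The labels name the TruSeq RNA kit, with no version for batch 1 and version 2 for batches 2 and 3, while the paper names version 2 alone. How reads matching several genes, or strand, were handled is not given in the sources used here. Symbols came from a RefSeq table (GRCm38.p6), which matched 25275 genes.

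Counts were analysed with edgeR 4.0.16 in R 4.3.3. Genes over 0.5 CPM in at least 3 libraries were kept. After TMM scaling, quasi-likelihood F tests were run in 1 fit of all libraries with the 5 sample types as groups, and p-values were adjusted by the Benjamini-Hochberg method over 15422 genes. CPM per kb and family shares divide by the deposited exon length. Exact permutation tests used log2(CPM + 0.5) or the share. The cultures (1 library each) were compared with MaSC/basal cells on log2 CPM with a prior count of 2. Intervals cover counting error only. The paper describes the sorted samples as independent, and no donor was named in the labels. No pair of replicates agreed within sampling noise.

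The members and lists were chosen with earlier results of these data known, and the CArG-like form after the sequences were seen. Genes named were all members and paralogs, up to 3 genes in each direction of each list (1 of them is not reported here), up to 3 of each marker list with others that mark pericytes, and the 10 most similar genes. *Pcsk7* was named after the overlap was seen. Each batch of the labels held an LP and an ML library, so these are paired by batch. MaSC/basal libraries are not fully paired, since batch 2 held replicates 2 and 3 and batch 3 held no MaSC/basal library. Deviations from group means correlated between -0.118 and 0.526 within batches (9 pairs) and between -0.419 and 0.115 across batches (18 pairs). For LP with ML they were 0.320, 0.313 and 0.526 within batches 1, 2 and 3, and -0.419 to 0.0861 across batches. The main fit did not use this pairing. On simulated counts of 15174 genes, with 200 changed by a log2 fold change of 3 between MaSC/basal and luminal libraries, edgeR recovered 99.5% with 11 false calls. Alternatives were DESeq2 size factors or no scaling, limma 3.58.1 voom, DESeq2 1.42.0, other filters, the 9 sorted libraries alone, batch as a block, another prior count, another fold and leaving out each sorted library.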

Additional observations from a re-analysis of the deposited data

Results flagged for a closer look

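Of 133 tested genes in the contractile set, its families, the 4 related lists and the pericyte markers, 8 lay over 2-fold beyond all 3 MaSC/basal libraries in opposite directions in the 2 cultures (log2 scale, prior count 2). The share of all genes with opposite directions was not counted, so whether these 8 are unusual is not known. In Mammosphere alone 19.6% of all genes were over 2-fold higher and 20% lower. The shares in Comma Dβ alone were 16.9% and 24.8%. *Notch3* was higher in Mammosphere (2.72, 140 CPM) and lower in Comma Dβ (-1.63, 6.84 CPM) than the MaSC/basal mean of 21.5 CPM. *Heyl*, a target of Notch signalling, was higher in Mammosphere (2.79) and lower in Comma Dβ (-2.41). The same direction was seen for *Des*, the gene of the intermediate filament desmin (2.57 and -2.23), for the calcium channel gene *Cacna1h* (2.67 and -1.73) and for the pericyte marker *Cspg4* (2.11 and -4.59). *Mylk2*, the skeletal muscle light chain kinase, was higher in Mammosphere (3.44, 70 reads) and had 0 reads in Comma Dβ (-1.68, a value set by the prior count). The LIM domain gene *Fhl1* (-1.53 and 3.51) and the transcription factor gene *Foxf1* (-3.97, 1 read, and 3.72) were lower in Mammosphere and higher in Comma Dβ. Of 32 other marker genes tested, 7 (*Krt8*, *Krt18*, *Krt19*, *Prlr*, *Lum*, *Dpt* and *Lyz2*) were higher in Mammosphere and lower in Comma Dβ by the same measure. With 1 library of each culture these differences were not tested.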

How the results depend on the processing

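The calls of all 10 genes against LP, ML and both luminal populations held under every alternative run, and both cultures kept 10 of 10 genes over 2-fold lower, or 9 of 10 over 4-fold lower. The count of genes called between LP and ML (2) was 1 without scaling, 1 with limma voom and 4 with DESeq2, and 1 to 3 when single libraries were left out. It was 3 with batch as a replicate block, which changed no other count of calls for the members. The *Mylk* share of its family, a difference of 42.3 percentage points, was 24.6 on reads not divided by length, and 35.3 to 49.0 when single libraries were left out, where p reached 0.0714 (exact permutation) since fewer splits remained. The causes of the other changes were not tested. Without scaling the median of all genes shifted to 0.22 in Mammosphere and 0.31 in Comma Dβ on the log2 scale, and between LP and ML to -0.19, with 1581 genes higher and 3798 lower in LP, compared with 2204 and 2695 with TMM. Depth limits *Myocd*, with 1 to 13 reads per luminal library.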

Other observations

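Several paralogs of the contractile genes had a higher level in the Mammosphere library than in MaSC/basal cells. Of the leiomodins and tropomodulins, *Tmod3* had the highest level per kb of exon in Mammosphere, at 93.5 CPM per kb beside 21.4 CPM per kb in MaSC/basal cells. *Tmod2* was at 12.9 CPM per kb, beside 0.753 CPM per kb in MaSC/basal cells. The striated muscle genes *Lmod2* (86 reads), *Lmod3* (117 reads) and *Mylk4* (51 reads) were also counted there, each with a mean of at most 0.0365 CPM in MaSC/basal cells and 0 reads in Comma Dβ. *Tagln3* went the other way, with 1.17 CPM in MaSC/basal cells and 0 reads in Mammosphere, where 3 reads would be 0.0677 CPM. Nonmuscle *Myh10* had 121 CPM in Mammosphere and 402 CPM in Comma Dβ, beside a MaSC/basal mean of 299 CPM. These are values of single libraries without a test.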
